A study of Mus musculus with 10 samples.

Results

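In a mouse acute lymphoblastic leukaemia line, 102 of the 29955 genes in the count table were at least 8 times higher in the late vehicle line than in the parental cells. The 102 members were chosen on measured values, and their levels in the dasatinib lines are what the choice left free. CPM (a gene's reads scaled to a common total of counted reads) had to reach 2 in the DMSO 16x library and 8 times the mean of the 2 parental libraries, and the DMSO 1x library had to lie above that mean. Hbb-b1 and every gene whose symbol starts with Hoxb were left out by name. The high levels in the DMSO libraries against the parental libraries are therefore the way the genes were found, not a result, and no test is given for them.

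The cells are a murine Ph+ line that carries BCR-ABL1 p185, the fusion kinase of Philadelphia chromosome-positive leukaemia, grown in RPMI medium with serum. RNA was sequenced from 10 libraries in 5 groups. The groups were cells grown out at 16x the IC90 of dasatinib (3 libraries, A to C), cells grown out at 1x (A to C), a line carried in the DMSO vehicle to the 16x step (1 library), a DMSO line at the 1x step (1 library), and untreated parental cells (A and B). The doses were raised stepwise, each after the culture had grown back. All groups share the BCR-ABL1 p185 background and 1 cell line, and the 2 DMSO groups have no replicate check. The titles call the dasatinib libraries biological replicates, but separate cultures are stated nowhere, and the spread and the p-values may be technical.

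Dasatinib blocks the kinase activity of BCR-ABL1 and of SRC family kinases, on which Ph+ cells depend for growth. A vehicle line is carried beside a drug-selected line in the solvent alone, so it shows what a culture does without the drug. Leukaemia lines are mixed populations, and in bulk RNA fewer cells that express a gene and less RNA of it per cell cannot be told apart.

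The libraries held 29049760 to 45813092 counts. Pro-B and pre-B cell markers were at a summed 3312 to 3585 CPM in dasatinib 16x, 3506 to 3628 in dasatinib 1x, 4036 in DMSO 16x, 3985 in DMSO 1x and 3722 to 3723 in the parental libraries, with none of the 11 genes at 0. The B-lineage markers were thus read in every group. Fibroblast and stroma markers summed to at most 0.0738 CPM in any library.

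Most of the 102 genes were low in the dasatinib lines. Their summed level was 299, 273 and 363 CPM in dasatinib 16x, 94.8, 89.5 and 93.2 CPM in dasatinib 1x (libraries A, B and C of each), 2280 CPM in DMSO 16x, 920 CPM in DMSO 1x, and 189 and 188 CPM in the parental libraries. The sums in dasatinib 16x thus lay above the parental sums and those in dasatinib 1x below them. More members lay below the parental cells than above them in both dasatinib groups, as the following counts show.

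**Figure D1:**
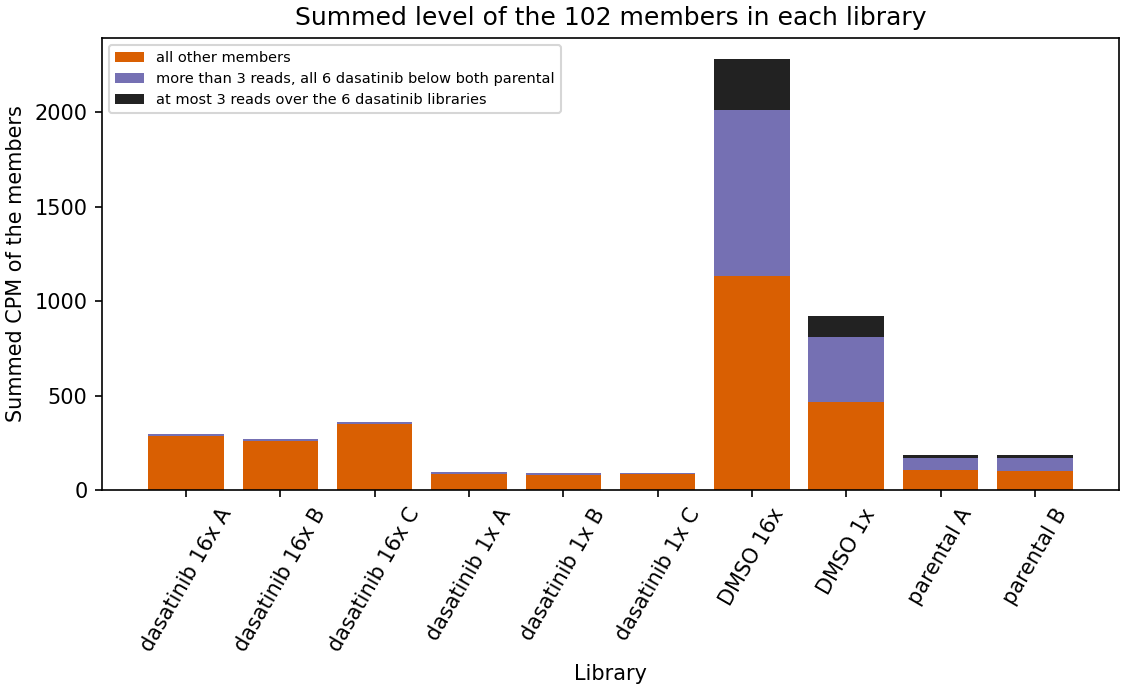
The bars give the summed CPM of the 102 members in each library, stacked by how the genes stood in the 6 dasatinib libraries. The DMSO 16x bar reaches 2280 CPM and the 3 dasatinib 1x bars lie between 89.5 and 94.8 CPM; the members with at most 3 reads add no more than 0.176 CPM to any dasatinib bar.

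In dasatinib 16x, all 3 libraries lay below both parental libraries for 62 of the 102 genes, or 60.8%, against 32.5% of the 10288 genes with at least 2 CPM in a library. They lay above both parental libraries for 22 genes, or 21.6%, against 26.2% of all such genes. In dasatinib 1x, all 3 libraries lay below both parental libraries for 78 genes (76.5%, against 29.5%) and above both for 6 genes (5.88%, against 19.8%). All 6 dasatinib libraries lay below both parental libraries for 58 genes (56.9%, against 19.8%) and above both for 4 genes (3.92%, against 13.3%). The 4 genes were Tnni2, Elovl7 and 2 with the symbol of a predicted gene, Gm3604 and A430110N23Rik, which RefSeq calls Ssc5d. The parental libraries took part in the choice of the members, so these shares are descriptions.

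Both DMSO libraries took part in the choice of the members for high DMSO levels, so a low position against them is partly built in, and the following shares are descriptions only. All 3 dasatinib 16x libraries lay below DMSO 1x for 88 members (86.3%, against 37.5% of the 10288 genes) and above it for 5 (4.9%, against 33.4%). All 3 dasatinib 1x libraries lay below DMSO 1x for 101 members (99.0%, against 40.5%) and above it for 1, Gm3604 (0.98%, against 32.5%). As a share of the DMSO 16x level, the median member stood at 1.57% in dasatinib 16x and 1.0% in dasatinib 1x. Its range over members was 0 to 91.4% in dasatinib 16x and 0 to 74.0% in dasatinib 1x.

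**Figure D2:**
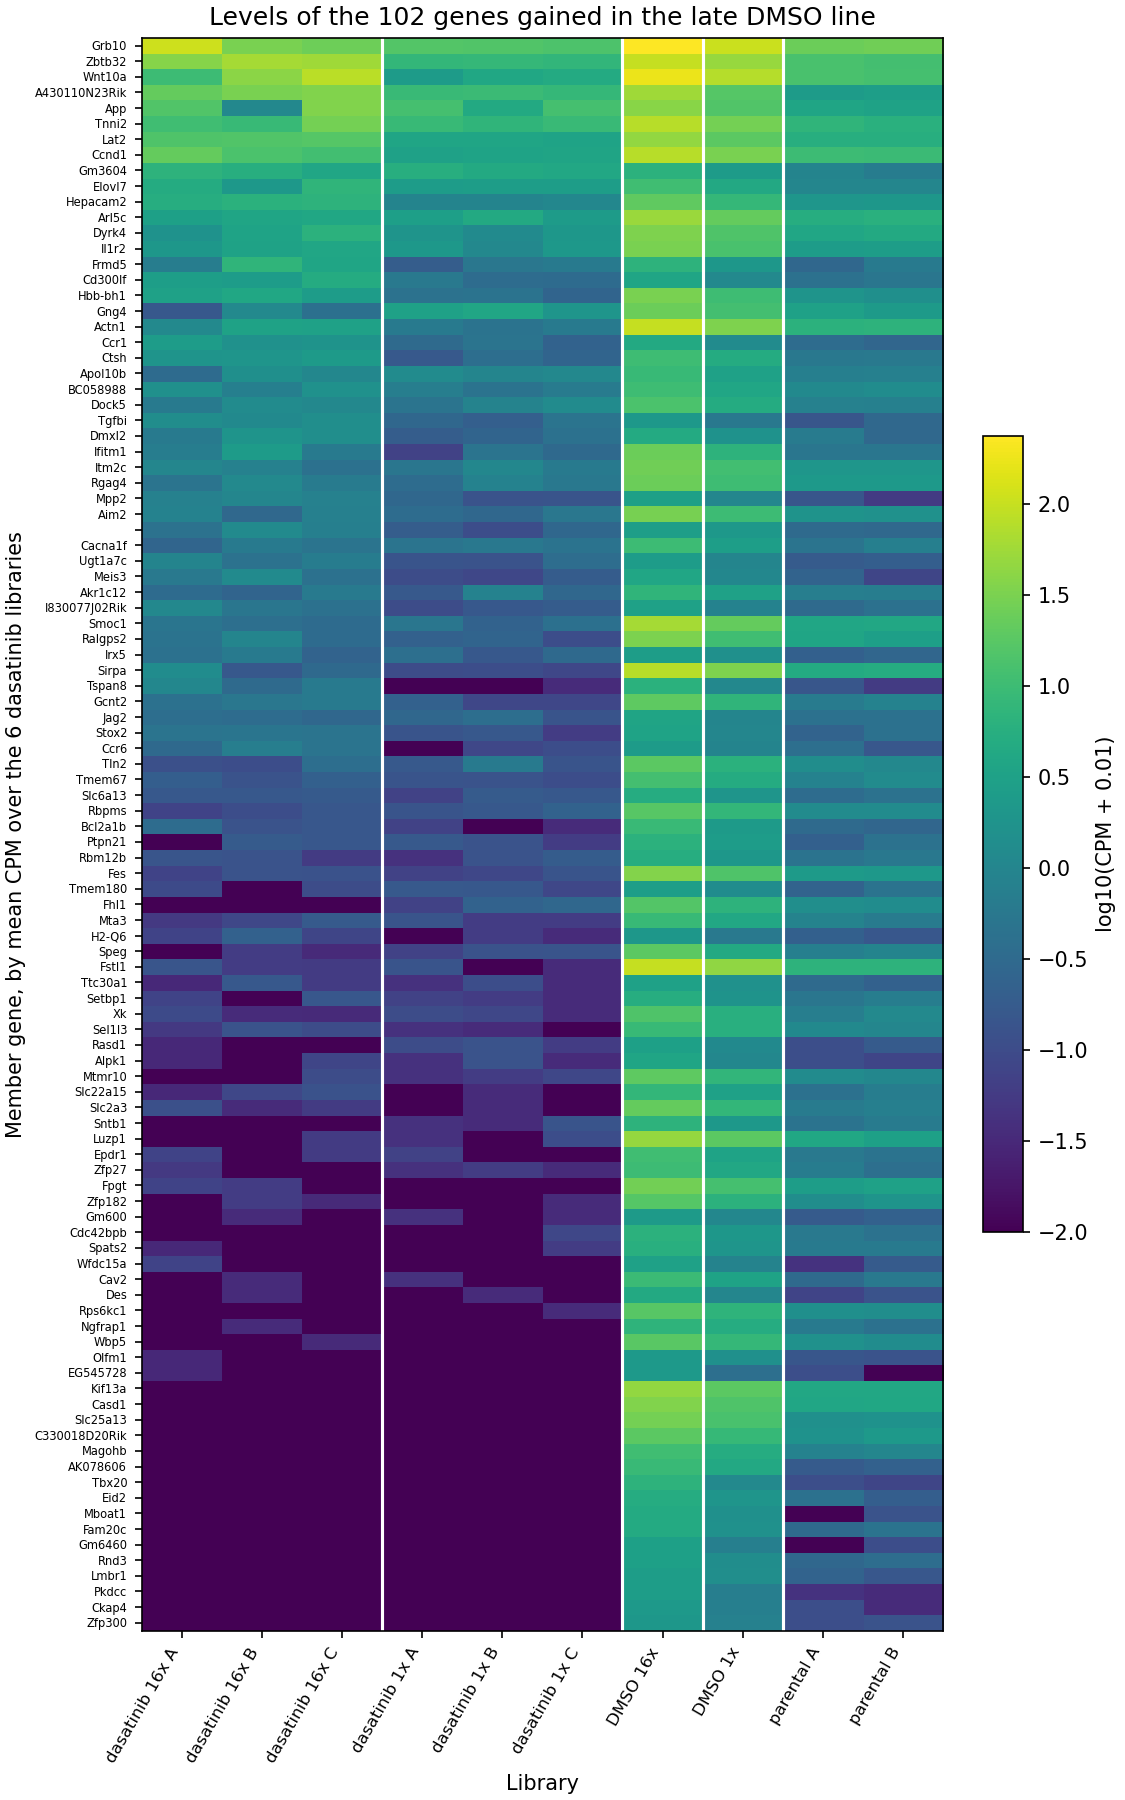
Each row is 1 of the 102 members (1 row carries no name) and each column 1 library, coloured by log10(CPM + 0.01), with the rows in order of the mean over the 6 dasatinib libraries. The DMSO 16x column is brighter than the parental columns in every row, while the dasatinib columns darken down the page until the last 16 genes, which had no read in any of the 6 dasatinib libraries.

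Many members were nearly absent from the dasatinib lines. Over the 6 dasatinib libraries together, 27 members (26.5%) had at most 3 reads, against 0.34% of the 10288 genes, and 16 members (15.7%) had no read at all, against 0.204%. Those 6 libraries held 240505058 counts. A gene that low in them could reach 2 CPM only in a DMSO or parental library. The members were chosen for a DMSO 16x level high against the parental level. These shares are therefore partly built in and are descriptions. Only 35 genes with at least 2 CPM in some library were down to at most 3 dasatinib reads, and they comprised the 27 members, 5 of the Hoxb genes left out by name, and Decr1, Gm5595 and Hoxb4. Of these last 3, Decr1 had its lower level outside the dasatinib lines in DMSO 16x, at 0.269 CPM, against 2.94 CPM in DMSO 1x and 4.78 and 5.27 CPM in the parental libraries. Where a gene had no read, folds below use a floor of 3 reads over the 6 dasatinib libraries, 0.0125 CPM. They are lower bounds that cover only the counting error of the absent dasatinib reads.

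Kif13a, a kinesin motor that carries vesicles along microtubules, had 0 reads in all 6 dasatinib libraries, against 46.4 CPM in DMSO 16x, 18.9 CPM in DMSO 1x, and 4.17 and 4.28 CPM in the parental libraries. The dasatinib lines were at least 3721-fold lower than DMSO 16x and at least 339-fold lower than the parental mean. Casd1, which adds acetyl groups to sialic acids in the Golgi, likewise had 0 reads in all 6 dasatinib libraries, against 34.7 CPM in DMSO 16x, 14.8 CPM in DMSO 1x, and 3.82 and 4.04 CPM in the parental libraries. Its bounds were at least 2783-fold lower than DMSO 16x and at least 315-fold lower than the parental mean. The dasatinib libraries overlapped no other library for either gene.

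Slc25a13, the mitochondrial aspartate-glutamate carrier called citrin, had 0 reads in all 6 dasatinib libraries, against 28.7 CPM in DMSO 16x, 13.2 CPM in DMSO 1x, and 1.58 and 1.69 CPM in the parental libraries. The dasatinib lines were at least 131-fold lower than the parental mean. Magohb, a core protein of the exon junction complex that marks spliced mRNA, had 0 reads in the same 6 libraries, against 11.0 CPM in DMSO 16x, 5.21 CPM in DMSO 1x, and 0.861 and 1.02 CPM in the parental libraries. It was at least 75.2-fold lower than the parental mean. Magohb has a close paralog, Magoh, and how the counting treated reads that fit both is not given in the sources used here.

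Rps6kc1, a kinase-like protein that binds sphingosine kinase, had 1 read in dasatinib 1x C and none in the other 5 dasatinib libraries, against 17.7 CPM in DMSO 16x, 7.08 CPM in DMSO 1x, and 1.51 and 1.38 CPM in the parental libraries. Wbp5, which RefSeq calls Tceal9, had 1 read in dasatinib 16x C and none in the other 5, against 17.9 CPM in DMSO 16x, 8.18 CPM in DMSO 1x, and 1.65 and 1.33 CPM in the parental libraries. Ngfrap1, which RefSeq calls Bex3 and which codes for a partner of the p75 neurotrophin receptor, had 1 read in dasatinib 16x B and none in the other 5. It stood at 7.1 CPM in DMSO 16x, 5.13 CPM in DMSO 1x, and 0.62 and 0.411 CPM in the parental libraries. All of these genes were detectable in both parental libraries, well above the dasatinib libraries.

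Further genes without a dasatinib read were the zinc finger gene Zfp300, the T-box factor gene Tbx20, Rnd3 (an atypical small GTPase), Ckap4 (a membrane protein of the endoplasmic reticulum), Fam20c (the Golgi casein kinase of secreted proteins), Mboat1 (a lysophospholipid acyltransferase) and Eid2 (an inhibitor of differentiation that binds histone acetyltransferases). In DMSO 16x these stood between 2.1 CPM for Zfp300 and 6.84 CPM for Tbx20. Cav2 (caveolin 2) and Des (desmin, the intermediate filament of muscle) had 2 dasatinib reads each. For some of them the parental libraries were also near the detection limit. They had 0 and 0.121 CPM for Mboat1, 0.103 and 0.0242 CPM for Ckap4, 0.103 and 0.0726 CPM for Tbx20, and 0.103 and 0.121 CPM for Zfp300. The bounds against the parental mean were therefore only 4.85-fold for Mboat1, 5.11-fold for Ckap4, 7.05-fold for Tbx20 and 8.99-fold for Zfp300. The counting error of these few parental reads is not covered, so the folds could be lower still.

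**Figure D3:**
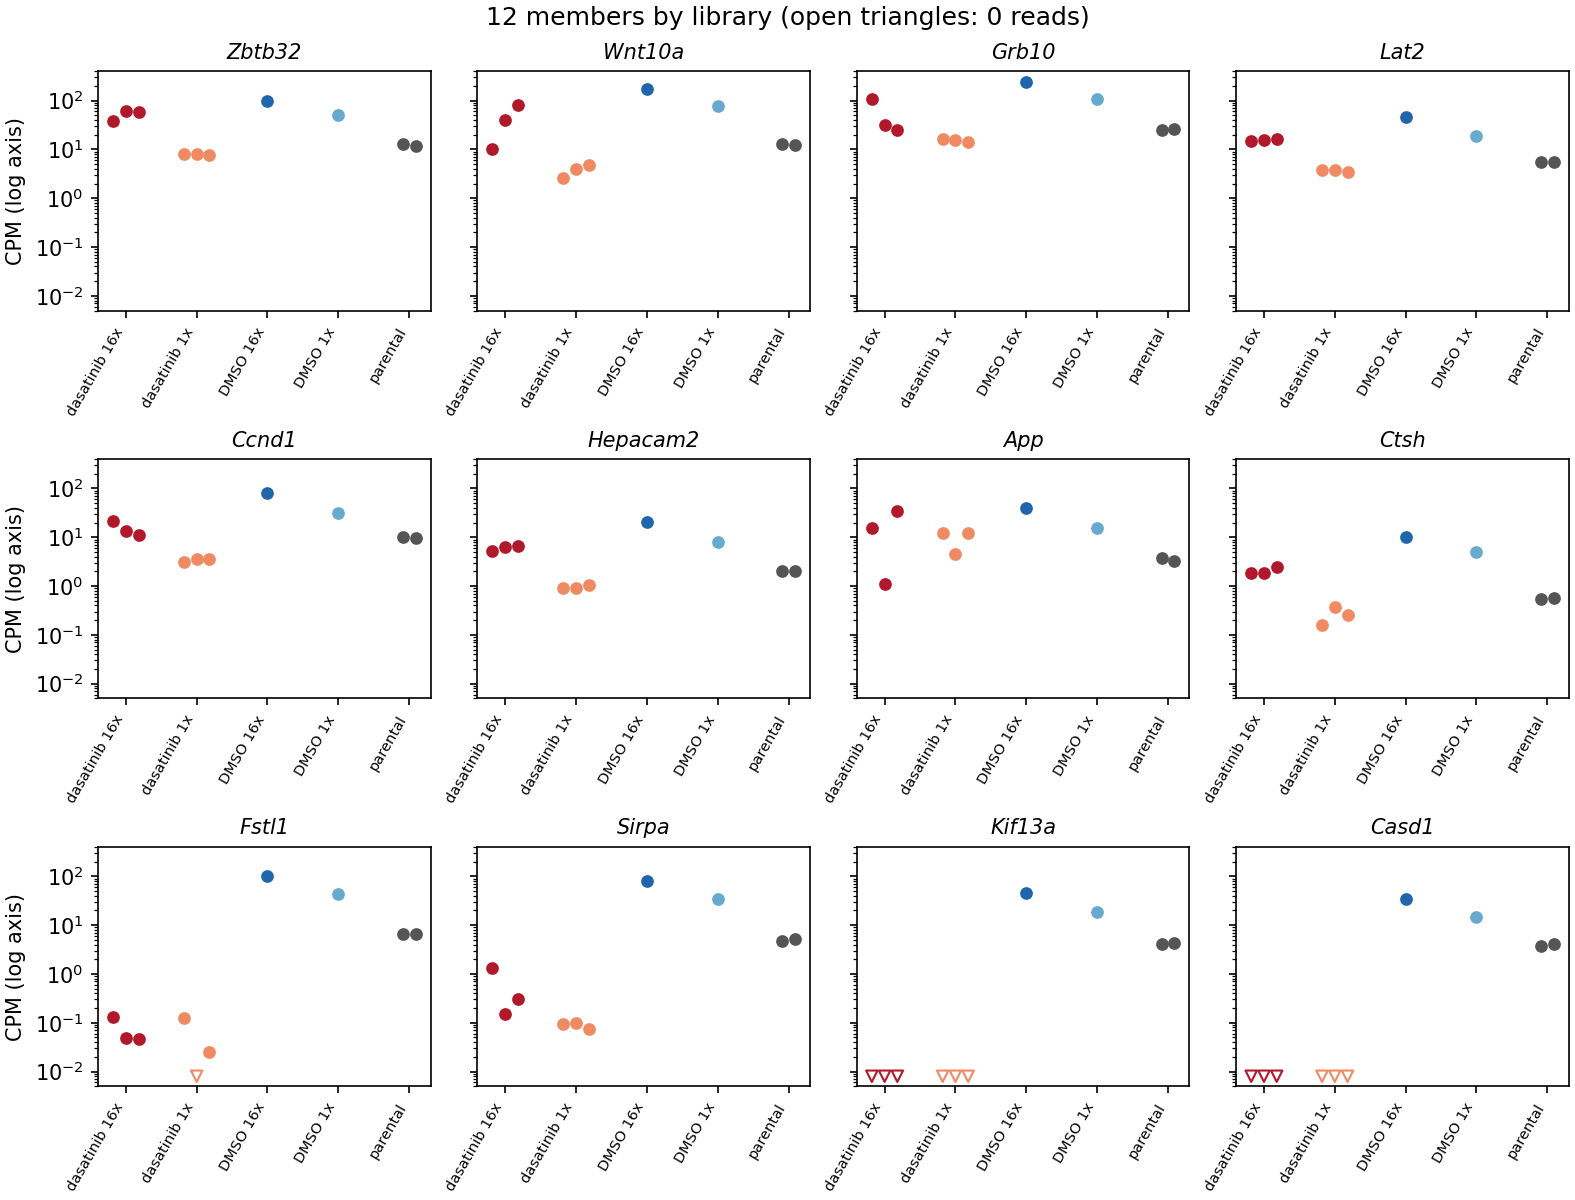
Each panel is 1 member, with the CPM of every library on a log axis by group; filled points are libraries with reads and open triangles libraries with 0 reads. Kif13a and Casd1 show triangles in all 6 dasatinib libraries, Zbtb32, Lat2 and Hepacam2 show tight dasatinib groups set apart from each other, and Grb10, Wnt10a and App show libraries of 1 group far from each other.

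The bases before the start of 6 members are shown because 4 of these genes, Kif13a, Casd1, Slc25a13 and Magohb, had no dasatinib read, and the other 2, Zbtb32 and Hepacam2, were read in every dasatinib library. Each is the 250 bases before the RefSeq start on the gene's own strand, 5′ to 3′, in GRCm38.p6, a later build than the mm9 named for the counting. They lie at chr13:46929719-46929968 (minus strand, Kif13a), chr6:4600661-4600910 (plus, Casd1), chr6:6217174-6217423 (minus, Slc25a13), chr6:131293245-131293494 (minus, Magohb), chr7:30598910-30599159 (minus, Zbtb32) and chr6:3494499-3494748 (minus, Hepacam2). Capitals mark the dinucleotide CG, the site of DNA methylation in mammals, which reads the same on both strands.
Kif13a: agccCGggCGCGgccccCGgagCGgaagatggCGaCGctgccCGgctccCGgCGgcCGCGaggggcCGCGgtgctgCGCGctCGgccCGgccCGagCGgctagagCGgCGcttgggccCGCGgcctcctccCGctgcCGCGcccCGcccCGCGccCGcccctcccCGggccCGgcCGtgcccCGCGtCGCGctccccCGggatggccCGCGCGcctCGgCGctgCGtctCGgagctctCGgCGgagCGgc
Casd1: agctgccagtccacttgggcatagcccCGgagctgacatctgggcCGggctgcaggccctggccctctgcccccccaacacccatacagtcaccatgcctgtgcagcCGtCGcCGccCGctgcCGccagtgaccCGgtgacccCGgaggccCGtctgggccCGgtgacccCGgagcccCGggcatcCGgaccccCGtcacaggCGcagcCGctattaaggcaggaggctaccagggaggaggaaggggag
Slc25a13: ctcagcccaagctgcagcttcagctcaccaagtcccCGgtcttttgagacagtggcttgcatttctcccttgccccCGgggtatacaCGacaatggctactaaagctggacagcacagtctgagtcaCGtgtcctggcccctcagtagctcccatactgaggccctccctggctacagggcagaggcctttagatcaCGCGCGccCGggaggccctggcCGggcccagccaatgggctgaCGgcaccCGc
Magohb: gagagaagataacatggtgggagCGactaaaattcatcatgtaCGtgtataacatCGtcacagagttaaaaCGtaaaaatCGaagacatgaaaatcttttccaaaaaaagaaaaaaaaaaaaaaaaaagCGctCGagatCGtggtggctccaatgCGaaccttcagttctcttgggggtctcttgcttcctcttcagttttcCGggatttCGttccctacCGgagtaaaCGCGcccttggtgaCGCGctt
Zbtb32: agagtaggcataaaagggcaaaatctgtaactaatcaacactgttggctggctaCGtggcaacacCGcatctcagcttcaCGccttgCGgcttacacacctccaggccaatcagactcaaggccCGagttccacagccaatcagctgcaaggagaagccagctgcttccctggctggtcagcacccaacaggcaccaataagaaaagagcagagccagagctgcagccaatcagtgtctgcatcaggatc
Hepacam2: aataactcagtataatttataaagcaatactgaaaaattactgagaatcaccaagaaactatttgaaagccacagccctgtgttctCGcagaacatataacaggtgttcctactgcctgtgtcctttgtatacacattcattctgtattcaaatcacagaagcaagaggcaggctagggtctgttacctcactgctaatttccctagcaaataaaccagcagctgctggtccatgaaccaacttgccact
These stretches hold 49 CG in Kif13a, 17 in Casd1, 11 in Slc25a13, 16 in Magohb, 5 in Zbtb32 and 1 in Hepacam2. At least 1 CG occurs in 94.6% of the 27025 RefSeq promoter windows of 300 bases. A window was found for 73 of the 102 members, too few for a comparison of CG content over the members, and none is made. The 6 genes shown do not stand for the members. Among members without a dasatinib read, the window held 62 CG in Kif13a and 2 in Gm6460. Among members read in every dasatinib library, it held 63 CG in Dmxl2, 45 in Grb10, 3 in Hepacam2 and 1 in Ccr1. Methylation was not measured.

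The members with more reads are described by what their products do, in groups drawn up with the values known. The 17 signalling genes include 1 with at most 3 dasatinib reads and 7 others in which all 6 dasatinib libraries lay below both parental libraries. Grb10, an adaptor that restrains insulin and growth factor receptors, stood at 109, 31.5 and 25.3 CPM in dasatinib 16x A, B and C, 16.3, 15.7 and 14.0 CPM in dasatinib 1x A, B and C, 238 CPM in DMSO 16x, 107 CPM in DMSO 1x, and 25.2 and 26.3 CPM in the parental libraries. Dasatinib 16x A was at the DMSO 1x level, dasatinib 16x C was at the parental level, and all 3 dasatinib 1x libraries were below the parental cells.

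Wnt10a, a secreted Wnt ligand, stood at 10.0, 40.7 and 82.6 CPM in dasatinib 16x A, B and C, 2.56, 4.06 and 4.77 CPM in dasatinib 1x A, B and C, 177 CPM in DMSO 16x, 78.4 CPM in DMSO 1x, and 13.2 and 12.3 CPM in the parental libraries. The order of the 3 dasatinib 16x libraries was the reverse of that in Grb10, with C at the DMSO 1x level and A below the parental cells. Ccnd1, the G1 cyclin D1, stood at 22.0, 13.5 and 11.2 CPM in dasatinib 16x A, B and C, 3.16, 3.51 and 3.54 CPM in dasatinib 1x, 80.2 CPM in DMSO 16x, 31.9 CPM in DMSO 1x, and 10.1 and 9.48 CPM in the parental libraries. Every dasatinib 16x library lay above, and every dasatinib 1x library below, both parental libraries.

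Lat2, a membrane adaptor of B cell and mast cell receptor signalling, stood at 14.8, 15.5 and 16.5 CPM in dasatinib 16x A, B and C, 3.72, 3.71 and 3.46 CPM in dasatinib 1x, 46.9 CPM in DMSO 16x, 18.5 CPM in DMSO 1x, and 5.61 CPM in both parental libraries. The replicates of each dasatinib step lay close together on either side of the parental level. App, the amyloid precursor protein gene, was the opposite case, at 15.5, 1.11 and 34.8 CPM in dasatinib 16x (A, B, C) and 12.1, 4.55 and 12.2 CPM in dasatinib 1x, against 39.3 CPM in DMSO 16x, 15.6 CPM in DMSO 1x, and 3.79 and 3.29 CPM in the parental libraries. Dasatinib 16x B was below the parental cells while its companions were near the levels of the DMSO lines. Other signalling genes were low throughout the dasatinib lines. Fes, a cytoplasmic tyrosine kinase, had 0.0631 to 0.126 CPM in the 6 dasatinib libraries, against 36.3 CPM in DMSO 16x, 15.1 CPM in DMSO 1x, and 2.41 and 2.13 CPM in the parental libraries. Arl5c had 2.56 to 4.48 CPM in the 6 dasatinib libraries. It stood at 52.9 CPM in DMSO 16x, 22.1 CPM in DMSO 1x, and 5.3 and 6.05 CPM in the parental libraries.

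The largest group holds 23 genes of adhesion, matrix and the cytoskeleton, 7 with at most 3 dasatinib reads and 9 more below both parental libraries in all 6. Fstl1, a secreted follistatin-like glycoprotein, had 0.131, 0.0492 and 0.0472 CPM in dasatinib 16x (A, B, C) and 0.126, 0 and 0.0251 CPM in dasatinib 1x, against 100 CPM in DMSO 16x, 43.8 CPM in DMSO 1x, and 6.71 and 6.72 CPM in the parental libraries. Smoc1, a secreted calcium-binding matrix protein, had 0.502, 0.394 and 0.331 CPM in dasatinib 16x and 0.505, 0.224 and 0.402 CPM in dasatinib 1x, against 61.8 CPM in DMSO 16x, 21.9 CPM in DMSO 1x, and 3.92 and 4.18 CPM in the parental libraries. In both genes the dasatinib groups overlapped each other and lay far below the parental cells.

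Actn1, the actin cross-linker alpha-actinin 1, had 1.16, 3.32 and 3.19 CPM in dasatinib 16x (A, B, C) and 0.599, 0.448 and 0.628 CPM in dasatinib 1x, against 99.1 CPM in DMSO 16x, 33.9 CPM in DMSO 1x, and 6.47 and 6.8 CPM in the parental libraries. Tnni2, the inhibitory troponin I of fast skeletal muscle, had 11.0, 8.81 and 28.6 CPM in dasatinib 16x and 8.96, 7.29 and 9.26 CPM in dasatinib 1x, against 80.7 CPM in DMSO 16x, 29.5 CPM in DMSO 1x, and 7.19 and 6.09 CPM in the parental libraries. Tnni2 thus stayed at or just above the parental level in 5 of the 6 dasatinib libraries and near DMSO 1x in dasatinib 16x C. Hepacam2, an immunoglobulin-like adhesion protein, had 5.22, 6.27 and 6.64 CPM in dasatinib 16x and 0.915, 0.921 and 1.05 CPM in dasatinib 1x, against 20.1 CPM in DMSO 16x, 8.12 CPM in DMSO 1x, and 2.0 and 2.08 CPM in the parental libraries. Its dasatinib 16x libraries all lay above the parental cells and its dasatinib 1x libraries all below.

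Of the 15 transcription and RNA genes, 5 had at most 3 dasatinib reads and 6 more were below both parental libraries in all 6. Zbtb32, a zinc finger repressor of activated lymphocytes, stood at 38.8, 60.5 and 57.3 CPM in dasatinib 16x A, B and C, 7.95, 8.14 and 7.63 CPM in dasatinib 1x, 99.9 CPM in DMSO 16x, 50.5 CPM in DMSO 1x, and 13 and 11.9 CPM in the parental libraries. The dasatinib 16x libraries surrounded the DMSO 1x level, and the dasatinib 1x libraries were below the parental cells. Zfp182 and Zfp27, 2 further zinc finger genes, had 4 and 6 reads over all 6 dasatinib libraries. They stood at 16.8 and 9.82 CPM in DMSO 16x and at 6.42 and 4.28 CPM in DMSO 1x, with parental levels of 1.41 and 1.86 CPM for Zfp182 and 0.688 and 0.387 CPM for Zfp27.

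The 15 transport and metabolism genes divide in the same way, with 3 at no more than 3 dasatinib reads and 6 more below both parental libraries in all 6. Slc2a3, the glucose transporter GLUT3, had 0 to 0.109 CPM in the 6 dasatinib libraries, against 22.0 CPM in DMSO 16x, 7.79 CPM in DMSO 1x, and 0.654 and 0.75 CPM in the parental libraries. Elovl7, a fatty acid elongase, had 4.95, 2.16 and 7.39 CPM in dasatinib 16x and 2.59, 2.69 and 2.76 CPM in dasatinib 1x, against 11.0 CPM in DMSO 16x, 4.39 CPM in DMSO 1x, and 0.998 and 0.992 CPM in the parental libraries. It was above the parental cells in every dasatinib library. Hbb-bh1, an embryonic beta-type globin, had 3.23, 3.99 and 2.57 CPM in dasatinib 16x and 0.442, 0.448 and 0.251 CPM in dasatinib 1x, against 31.1 CPM in DMSO 16x, 10.3 CPM in DMSO 1x, and 1.82 and 1.48 CPM in the parental libraries. Ctsh, the lysosomal protease cathepsin H, had 1.83, 1.89 and 2.41 CPM in dasatinib 16x and 0.158, 0.373 and 0.251 CPM in dasatinib 1x, against 10.2 CPM in DMSO 16x, 4.99 CPM in DMSO 1x, and 0.551 and 0.58 CPM in the parental libraries. For both genes every dasatinib 16x library was above and every dasatinib 1x library below the parental cells.

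The 11 genes of immune cells were the group with no member near absent, and 2 were below both parental libraries in all 6 dasatinib libraries. Sirpa, an inhibitory receptor of myeloid cells that binds CD47, had 1.33, 0.148 and 0.307 CPM in dasatinib 16x (A, B, C) and 0.0947, 0.0995 and 0.0753 CPM in dasatinib 1x, against 80.1 CPM in DMSO 16x, 33.8 CPM in DMSO 1x, and 4.65 and 5.15 CPM in the parental libraries. Aim2, the cytosolic DNA sensor, had 0.274 to 0.873 CPM in the 6 dasatinib libraries, against 30.5 CPM in DMSO 16x, 10.1 CPM in DMSO 1x, and 1.76 and 1.64 CPM in the parental libraries. Cd300lf, an inhibitory receptor of myeloid cells, went the other way, with 2.86, 2.58 and 4.89 CPM in dasatinib 16x, 0.568, 0.348 and 0.326 CPM in dasatinib 1x, 3.77 CPM in DMSO 16x, 1.13 CPM in DMSO 1x, and 0.413 and 0.508 CPM in the parental libraries. Dasatinib 16x C was above DMSO 16x for this gene. The chemokine receptor gene Ccr1 had 2.66, 1.65 and 1.77 CPM in dasatinib 16x and 0.316, 0.473 and 0.226 CPM in dasatinib 1x, against 4.6 CPM in DMSO 16x, 1.26 CPM in DMSO 1x, and 0.344 and 0.266 CPM in the parental libraries. Its dasatinib 16x libraries all lay above DMSO 1x.

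Within the vehicle line, DMSO 1x lay below DMSO 16x and above both parental libraries for all 102 genes. The choice of members fixed part of this, although leaving out the condition on DMSO 1x would have added no gene. The DMSO 1x level was a median of 0.382 of the DMSO 16x level, with quartiles of 0.323 and 0.436 and a range over members of 0.165 to 0.753. That median was 0.392 for the 27 members with at most 3 dasatinib reads, 0.393 for the 35 others below both parental libraries in all 6, and 0.37 for the remaining 40. DMSO 16x was 8.02 to 91.8 times the parental mean, with a median of 13.3.

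**Figure D4:**
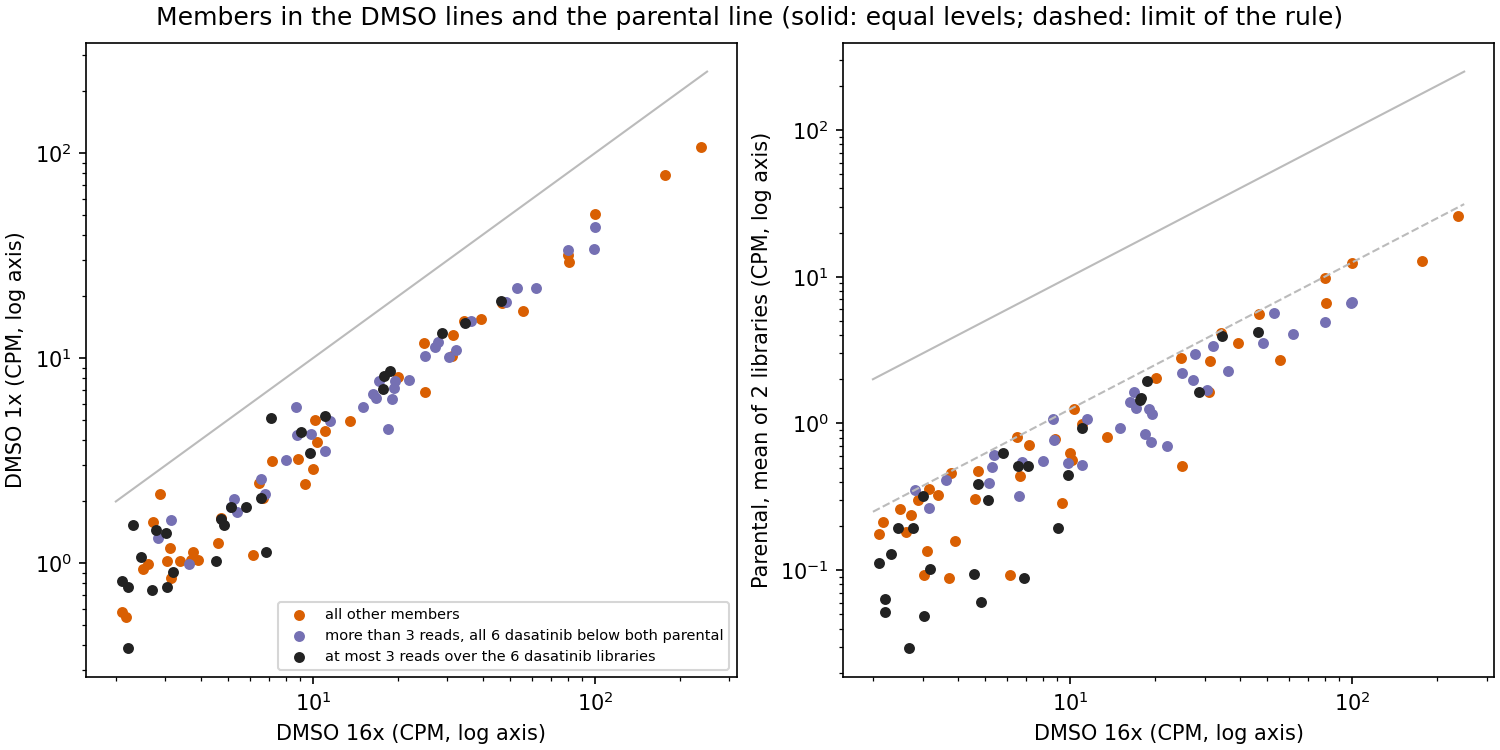
Each point is 1 member, with its DMSO 16x level on the x axis and, on the y axis, its DMSO 1x level (left) or parental mean (right), all in CPM on log axes. On the left the 3 kinds of members lie along 1 band below the line of equal levels, at a median ratio of 0.382; on the right the dashed line is the 8-fold limit used to choose the members.

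The 2 dasatinib steps share no library with those that chose the members, so dasatinib 16x was tested against dasatinib 1x, with edgeR's quasi-likelihood test over 12993 genes in a fit of all 10 libraries and Benjamini-Hochberg adjustment at 0.05. Of the 102 members, 23 rose (22.5%, against 6.89% of all genes tested), 3 fell (2.94%, against 6.13%) and 76 did not pass. With dasatinib 1x A left out the counts were 18 and 1 members, against 4.1% and 3.28% of all genes. With dasatinib 1x C left out they were 20 and 1, against 4.13% and 3.29%. These fits took the spread also from the DMSO and parental libraries that chose the members. In a fit of only the 6 dasatinib libraries, 21 members rose (20.6%, against 5.3% of all genes) and 1 fell (0.98%, against 4.26%). In the fit of all 10 libraries, the median log2 change was 0.48 for the members and 0.001 for all genes. All 102 had passed the filter on low counts through DMSO 16x, and 27 of them had almost no dasatinib reads to test, so the counts describe the list and are no test of it. The libraries of the steps did not overlap, with all 3 dasatinib 16x above all 3 dasatinib 1x, for 31 members (30.4%, against 17.0% of the 10288 genes), and the reverse held for 5 (4.9%, against 16.0%).

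Of the 23 called genes without the symbol of a predicted gene, 7 held their calls under all 17 alternatives, Lat2, Hepacam2, Hbb-bh1, Ctsh, Cd300lf, Ccr1 and Zbtb32. Lat2 averaged 15.6 ± 0.896 CPM in dasatinib 16x and 3.63 ± 0.145 CPM in dasatinib 1x (SD, n = 3 each), a log2 change of 2.10 ± 0.08 (SE) with an edgeR adjusted p of 6.32e-08. Hepacam2 averaged 6.04 ± 0.738 CPM in dasatinib 16x and 0.963 ± 0.0789 CPM in dasatinib 1x, a log2 change of 2.64 ± 0.14 with an edgeR adjusted p of 7e-07. Zbtb32 averaged 52.2 ± 11.7 CPM in dasatinib 16x and 7.91 ± 0.256 CPM in dasatinib 1x, a log2 change of 2.72 ± 0.19 with an edgeR adjusted p of 0.000474. The other 4 rose by log2 changes between 2.57 for Ccr1 and 3.10 for Hbb-bh1, with edgeR adjusted p-values between 7.64e-06 for Hbb-bh1 and 0.000197 for Ccr1. In all 7 genes every dasatinib 16x library was above every dasatinib 1x library.

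The role groups were drawn up with the values known, so their counts are descriptions beside the 6.89% of all genes that rose and the 6.13% that fell. Of the 11 immune genes 6 rose (54.5%) and none fell, and of the 15 transport and metabolism genes 4 rose (26.7%) and none fell. Of the 23 adhesion and cytoskeleton genes 5 rose (21.7%) and 2 fell (8.7%), and of the 15 transcription and RNA genes 3 rose (20.0%) and none fell. Of the 17 signalling genes 2 rose (11.8%) and 1 fell (5.88%), the last close to the share over all genes. Among the immune genes that rose, Ccr6, a chemokine receptor gene of B cells, averaged 0.505 ± 0.218 CPM in dasatinib 16x and 0.0584 ± 0.0522 CPM in dasatinib 1x (edgeR adjusted p = 0.00991). Ccnd1 rose by a log2 change of 2.19 ± 0.29 (edgeR adjusted p = 0.00682). Tspan8, a tetraspanin of the cell surface, had 87 reads in dasatinib 16x and 1 in dasatinib 1x, a ratio of 75.5 with a 95% counting interval of 13.2 to 3014, and its edgeR adjusted p was 0.000932. This and the later counting intervals pool the libraries of a step and leave out the spread between them. The Tspan8 reads were 48, 13 and 26 in dasatinib 16x A, B and C. Mpp2, a scaffold protein of membrane junctions, and Tgfbi, a secreted matrix protein, rose by log2 changes of 2.34 and 2.04, with edgeR adjusted p-values of 0.00156 and 0.00188.

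The 3 that fell were at trace levels in the dasatinib lines. Fhl1, a LIM-domain protein of muscle, had 0 reads in dasatinib 16x (A, B, C) and 0.0631, 0.224 and 0.276 CPM in dasatinib 1x, against 16.3 CPM in DMSO 16x, 6.7 CPM in DMSO 1x, and 1.45 and 1.33 CPM in the parental libraries. With 22 reads in dasatinib 1x and a floor of 3 reads in dasatinib 16x, dasatinib 16x was 8.45-fold lower (edgeR adjusted p = 0.00345). Sntb1, a syntrophin of the dystrophin complex, had 0 reads in dasatinib 16x and 7 in dasatinib 1x, 2.69-fold lower at the same floor (edgeR adjusted p = 0.0466). Neither fold covers the counting error of the dasatinib 1x reads, so neither is a lower bound. Rasd1, a small GTPase induced by glucocorticoids, had 1 read in dasatinib 16x and 10 in dasatinib 1x, a ratio of 11.5 with a 95% counting interval of 1.64 to 500 (edgeR adjusted p = 0.044). Sntb1 lost its call without any dasatinib 16x library, dasatinib 1x A or C, DMSO 16x, or either parental library, with adjusted p-values up to 0.217. Rasd1 lost it without dasatinib 16x B or C, any dasatinib 1x library, DMSO 16x, or either parental library, with values up to 0.137.

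Some members that did not pass were called under other settings. Grb10 had a log2 change of 1.85 ± 0.66 (edgeR adjusted p = 0.156), which was 0.89 without dasatinib 16x A and then passed at 0.000179, and it passed under DESeq2 with all libraries kept (adjusted p = 0.018). Wnt10a had a log2 change of 3.52 ± 0.91 (edgeR adjusted p = 0.0712) and passed at 0.00891 without dasatinib 16x A and at 3.29e-05 under DESeq2 with all libraries kept. Elovl7 had 0.85 ± 0.41 (edgeR adjusted p = 0.251) and passed at 0.00047 without dasatinib 16x B. App was far from the threshold at 0.85 ± 1.07 (edgeR adjusted p = 0.692), and so was Tnni2 at 0.93 ± 0.51 (adjusted p = 0.335). In the other direction, some called genes lost their calls without 1 library. Actn1 (edgeR adjusted p = 0.0465) lost it without dasatinib 16x B or C, any dasatinib 1x library or either parental library, with values up to 0.141. Bcl2a1b, a BCL2 relative that counters cell death, had 27 reads in dasatinib 16x and 3 in dasatinib 1x, a ratio of 7.81 with a 95% counting interval of 2.4 to 40.2, and lost its call without dasatinib 16x A, dasatinib 1x B or dasatinib 1x C, with values up to 0.101. Dmxl2 and Ugt1a7c lost it without dasatinib 1x A or B (up to 0.0758 and 0.09), and Meis3 without dasatinib 1x A (0.0533). Gng4, a G protein gamma subunit, had 0.153, 1.16 and 0.402 CPM in dasatinib 16x and 3.22, 3.86 and 1.91 CPM in dasatinib 1x without passing (edgeR adjusted p = 0.0676).

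**Figure D5:**
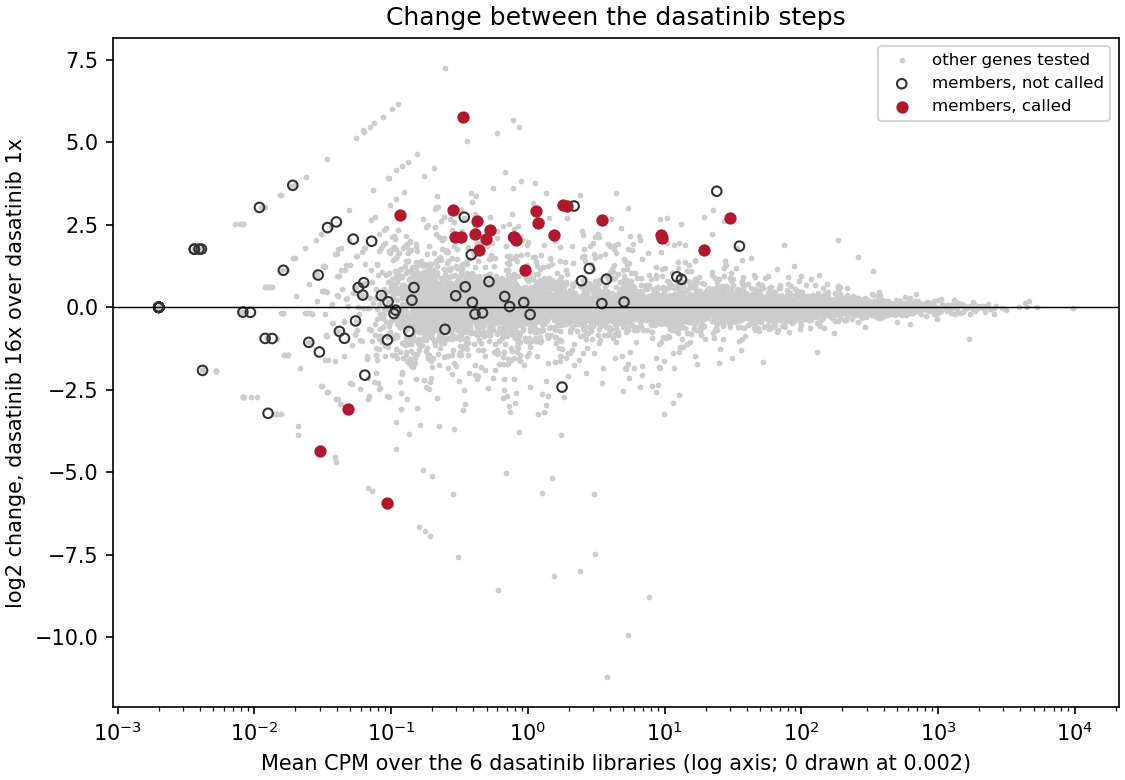
Each point is a gene tested in dasatinib 16x against dasatinib 1x, with its mean CPM over the 6 dasatinib libraries on a log x axis and its fitted log2 change on the y axis. The called members are filled, 23 above the zero line and 3 below it at low levels; members with 0 dasatinib reads are drawn at the left edge, and fitted changes of genes with few reads are not fold estimates.

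Lists of related genes put the members in context, each read in the same test of dasatinib 16x against dasatinib 1x. Over all genes tested, 6.89% rose and 6.13% fell. The lists were chosen with earlier results known, so their shares are descriptions. Of the Bex, Tceal and Armcx family on the X chromosome, 22 genes are in the table, 9 were tested, 2 are members (Wbp5 and Ngfrap1), and none rose. Gprasp1 fell by 0.27 and Bhlhb9 fell by 0.20 on the log2 scale (22.2% of the 9). Their neighbour Armcx3 was lower in DMSO 16x than elsewhere, at 1.02 CPM in DMSO 16x, 10.4 CPM in DMSO 1x, and 19 and 17.9 CPM in the parental libraries, and had 17.3 to 20.0 CPM in the dasatinib libraries. Of 43 imprinted genes, 16 were tested, Grb10 is a member, and none passed in either direction. Of 34 germline genes known to rely on DNA methylation for silencing, 4 were tested and none is a member, while Piwil2 and Piwil4 rose and Tdrd9 fell. Of 276 tested zinc finger genes named Zfp, 3 are members, 3 rose (1.09%, against 6.89% of all genes) and 23 fell (8.33%, against 6.13%).

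Of 21 tested genes for DNA methylation and H3K9 silencing, none is a member and none rose. Dnmt1, the maintenance DNA methyltransferase, Uhrf1, its recruiting partner, Hells, Trim28 and Cbx5 fell by 0.12 to 0.22 on the log2 scale. They were 5 of the 21 (23.8%, against 6.13% of all genes tested). Dnmt1 had 600, 614 and 576 CPM in dasatinib 16x and 672, 661 and 686 CPM in dasatinib 1x, against 709 CPM in DMSO 16x, 690 CPM in DMSO 1x and 703 CPM in both parental libraries. The whole list summed to 3981 to 4166 CPM in dasatinib 16x and 4296 to 4395 CPM in dasatinib 1x, against 4444 CPM in DMSO 16x, 4434 CPM in DMSO 1x, and 4553 to 4595 CPM in the parental libraries. The part of these changes in the levels of the members was not tested.

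Some members are known from other blood cells, so the markers of those cells stand beside them. Erythroid markers summed to 16.3 to 26.5 CPM in dasatinib 16x and 4.07 to 4.63 CPM in dasatinib 1x, against 34.8 CPM in DMSO 16x, 11.7 CPM in DMSO 1x, and 4.45 to 5.03 CPM in the parental libraries. Most of this was Hbb-b1, which rose between the dasatinib steps and was left out of the members by name. Of the 3 erythroid markers tested, 1 rose (33.3%, against 6.89% of all genes tested) and none fell. Myeloid markers summed to 3.64 to 8.19 CPM in dasatinib 16x and 6.3 to 6.72 CPM in dasatinib 1x, against 3.93 CPM in DMSO 16x, 4.88 CPM in DMSO 1x, and 5.83 to 6.02 CPM in the parental libraries. Of 3 tested, Csf1r rose (33.3%, against 6.89% of all genes tested), at no more than 0.32 CPM. Elane had no read in any library.

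T cell markers summed to 46.8 to 47.5 CPM in dasatinib 16x and 27.8 to 32.4 CPM in dasatinib 1x, against 51.4 CPM in DMSO 16x, 35.5 CPM in DMSO 1x, and 22.9 to 23.8 CPM in the parental libraries. That came from Lck and Cd28, of which Cd28 rose, while the 5 other markers, Cd3e, Cd3d, Cd3g, Cd4 and Cd8a, were below 0.1 CPM in every library. No fibroblast marker and 2 endothelial markers reached the test, and neither of the endothelial markers passed. Of the 11 pro-B and pre-B cell markers none rose and 3 fell, Cd79b and Rag1 among them, and of 23 tested other lymphoid genes Cr2 and Cd2 rose and Lef1, Irf4 and Il7r fell. Rag1, a subunit of the recombinase of antibody gene assembly, had 8.6, 3.74 and 2.95 CPM in dasatinib 16x and 21.3, 16.4 and 17.6 CPM in dasatinib 1x, against 20.4 CPM in DMSO 16x, 56.9 CPM in DMSO 1x, and 74.6 and 76.9 CPM in the parental libraries.

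RefSeq placed 100 of the 102 members, 92 by their symbol and 8 by a synonym, and 9895 of the genes with at least 2 CPM in a library. Every autosome and the X chromosome held at least 1 member. The X chromosome held 8 (8.0%, against 3.34% of the genes placed), chromosome 7 held 11 (11.0%, against 7.46%), chromosome 6 held 9 (9.0%, against 4.4%), chromosome 13 held 9 (9.0%, against 3.96%) and chromosome 1 held 9 (9.0%, against 5.82%). Others held less than their share, such as chromosome 11 with 5 (5.0%, against 8.55%), chromosome 4 with 3 (3.0%, against 6.07%) and chromosome 19 with 1 (1.0%, against 3.66%). No test of these shares was made. The 8 on the X chromosome were Cacna1f, Fhl1, Ngfrap1, Rgag4, Wbp5, Xk, Zfp182 and Zfp300. Rgag4, a gene derived from a retrotransposon that RefSeq calls Rtl5, had 0.347 to 1.16 CPM in the 6 dasatinib libraries, against 24.9 CPM in DMSO 16x, 10.3 CPM in DMSO 1x, and 2.2 CPM in both parental libraries. Among expressed genes in chromosomal order, 4 pairs of members were next to each other, Wbp5 with Ngfrap1 and Zfp182 with Zfp300 on the X chromosome, Des with Speg on chromosome 1, and EG545728 with Gm6460 on chromosome 5. No source used here gives the strand setting of the counting, and reads of overlapping or adjoining genes may be shared. Likewise the last pair, Bcl2a1b, H2-Q6, Akr1c12 and the globin genes have near-identical relatives that can share reads.

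The limits of the choice ran through a continuous range. At the limit of 2 CPM, H2-Q6 and Zfp300 (2.1 CPM each) and Tgfbi (2.18 CPM) were just inside in DMSO 16x, and Chst11 (1.96 CPM), Plekhf1 (1.94 CPM) and Zfp563 (1.88 CPM) just outside. At the 8-fold limit, Zbtb32 (8.02-fold over the parental mean), Gm3604 (8.04-fold) and Sel1l3 (8.07-fold) were just inside, and S1pr2 (7.89-fold), Glrp1 (7.79-fold) and Ccr2 (7.59-fold) just outside. The 6 genes left out by name would otherwise have been members. Of these, Hoxb8, a homeobox factor gene, had 0 reads in all 6 dasatinib libraries, against 29 CPM in DMSO 16x, 10.8 CPM in DMSO 1x, and 0.861 and 0.701 CPM in the parental libraries.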

How the data were processed

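RNA sequencing of 10 libraries was analysed from the authors' deposited table of whole-number counts by gene symbol. The tools listed, per the submitters' processing notes, are CASAVA 1.7.0, Trimmomatic 0.33, TopHat2 2.0.12, BWA 0.7.10, SAMtools, HTSeq 0.6.1 and DESeq, with mm9 as the build. Which step each tool served, the strand setting and the treatment of reads that fit several genes are not given in the sources used here. Any tables of normalized values were not used here. Results for some single genes are not reported here, although the counts include them.

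CPM were counts divided by the column total. They are not per gene length, so levels are compared within a gene only. The table lists 29955 genes. A count above 0 was found for 18621, and filterByExpr (edgeR 4.0.16, minimum count 10) left 12993. A robust quasi-likelihood fit with TMM scaling on all 10 libraries in 5 groups had 5 residual degrees of freedom and a biological coefficient of variation of 7.29%. R was 4.3.3, and limma 3.58.1 and DESeq2 1.42.0 served as alternatives. The script was tested on simulated data. Every test was two-sided.

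The members and the gene lists were chosen with earlier results of these data known, and the role groups with the values seen. Named were the 10 members with the highest CPM in DMSO 16x, the 8 highest over the dasatinib libraries, up to 8 called by smallest p, 3 on each side of each limit, the 6 highest in DMSO 16x with at most 3 dasatinib reads, members on a list, the 4 highest in DMSO 1x and the 4 highest on the X chromosome. Genes with the symbol of a predicted gene, such as A430110N23Rik, were left out of these rankings except at the limits. Other members are named as examples of their role or for a call, and were chosen after their values were seen. Lists were markers of pro-B and pre-B, T, myeloid, erythroid, stromal and endothelial cells, the Bex, Tceal and Armcx family, germline, imprinted, silencing, lymphoid and Zfp genes. Promoters and positions came from RefSeq on GRCm38.p6. Alternatives changed the scaling, the filter, the tool, the libraries, the fold threshold, the replicate block and the limits of the choice.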

Additional observations from a re-analysis of the deposited data

Results flagged for a closer look

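The 3 members that were lower in dasatinib 16x than in dasatinib 1x differ in direction from the vehicle line, where every member was higher in DMSO 16x than in DMSO 1x. The members had been chosen for a high level in DMSO 16x. The mean CPM in dasatinib 16x minus that in dasatinib 1x was -0.188 for Fhl1, -0.0607 for Sntb1 and -0.0825 for Rasd1. All 3 dasatinib 16x libraries lay below all 3 dasatinib 1x libraries for each gene. The difference between the dasatinib step and the DMSO step was not tested, since each DMSO step is 1 library. These are traces: Fhl1 had 22 reads over the 3 dasatinib 1x libraries, Sntb1 7 and Rasd1 10.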

How the results depend on the processing

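Of 26 members called between the dasatinib steps, 10 were called with the replicate letter as a block in the 6 dasatinib libraries (10 higher and 0 lower, so that Fhl1, Sntb1 and Rasd1 were not called) and 9 against a fold of 2; over all genes, 1692 calls became 321 with the block and 72 against a fold of 2. Leaving out 1 library gave 19 to 29 members and 959 to 2050 genes, the lowest being 959 for dasatinib 1x A and 963 for dasatinib 1x C. The labels do not say whether the letters A, B and C pair the libraries of the dasatinib steps. Deviations of same-letter libraries correlated at 0.0514, 0.0298 and 0.0344, and those of unlike letters at -0.0349 to 0.00243. Every library correlated best with its own letter, but values this small do not decide whether the letters pair. The number of members was 194 at a fold of 4 and 35 at a fold of 16. Members above the parental mean in every dasatinib 16x library numbered 24 (23.5%, against 31.3% of the 10288 genes with at least 2 CPM in a library). They numbered 60 of 194 at a fold of 4 and 7 of 35 at a fold of 16. In every dasatinib 1x library they numbered 7 (6.86%, against 25.8%), or 27 of 194 and 2 of 35. The parental libraries took part in the choice, so these counts are descriptions. Of 43 named genes, 4 that were not called passed under an alternative (Wnt10a, Grb10, Elovl7 and Sirpa), and 0 changed sign. The 2 DMSO groups of 1 library each, the shared cell line and the few reads of near-absent members limit what can be said. The cause of the changes with the settings was not tested.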
